A study of Sus scrofa with 18 samples.

Results

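Porcine 4-cell embryos from oocytes matured in FLI medium were compared with 4-cell embryos from oocytes matured in DMEM. The samples were chosen by their labels, as all those of the 4-cell stage, which gave 6 of the 18 sequenced pools, 3 from FLI and 3 from DMEM. The other 12 pools hold 2-cell and 8-cell embryos of the same media, 3 pools per stage and medium. FLI is a TCM199-based maturation medium with FGF2, LIF and IGF1, and by the study's methods it also contained EGF, bovine serum albumin, pyruvate, glutamine and cysteine. The DMEM medium was supplemented with EGF, IGF1 and FGF, and both media contained the gonadotropins PMSG and hCG. The media therefore differ in base, protein and several supplements at once, and the difference between them cannot be assigned to a single component. In both groups the oocytes came from slaughterhouse ovaries of prepubertal gilts and were activated parthenogenetically, so the embryos carry maternal genomes only. After activation, the methods describe culture in PZM-3, with no separate culture medium for either group. Each library was made from pooled whole embryos, and nothing in the labels or methods ties the pools to separate oocyte collections, so that p-values cover no more than the spread among these pools.

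A pig embryo lives at first on RNA and protein stored in the oocyte. Around the 4-cell stage its own genome is switched on, maternal transcripts are degraded, and genes for ribosomes, translation and metabolism are transcribed from the embryonic chromosomes. The question was whether the medium in which the oocyte matured left a difference in this transcriptome. Total RNA was sequenced, and the values are counts of reads per gene. Levels are given as CPM, counts scaled to a common library size with TMM factors, and abundances per transcript length as TPM. All coordinates refer to the pig genome build Sscrofa11.1.

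The 6 libraries held 4079290 to 5123898 counts in FLI and 4217732 to 4732619 in DMEM embryos. At 3 counts, the limit that a count of 0 allows, the level was 0.585 to 0.735 CPM in FLI and 0.634 to 0.711 CPM in DMEM libraries, and this covers counting error only. Pearson's correlation between libraries over the tested genes was 0.960 to 0.972 within FLI, 0.955 to 0.969 within DMEM and 0.953 to 0.973 between the media. FLI replicate 3 was most like DMEM replicate 3, with a correlation of 0.971. The number of genes with at least 1 count, the total count, the share of the 100 most abundant genes and the share of mitochondrially encoded transcripts did not pass an exact permutation test (2-sided, smallest p possible 0.1, p = 0.3 to 1, adjusted p = 0.75 to 1 over 5 values). Oocyte and embryo markers were followed in the 4-cell libraries only, so they do not check the labelled stage. Of 9 such markers in the table, OOEP alone averaged under 1 CPM over the 6 libraries. ZAR1 averaged 2.22 CPM in FLI, against 1.92 CPM in DMEM embryos. The oocyte growth factor BMP15 had 1177, 1520.3 and 2451 CPM in FLI embryos and 811, 1252 and 1821 CPM in DMEM embryos, and the pluripotency factor POU5F1 had 108 ± 21.0 CPM in FLI, against 123 ± 18.3 CPM in DMEM embryos (SD, n = 3 each). Of 15 cumulus and granulosa cell markers, 13 averaged under 1 CPM over the 6 libraries, HAS2 and CYP19A1 among them. The summed level of these 15 was 8.83 to 12.4 CPM in FLI and 19.2 to 21.9 CPM in DMEM embryos. Most of it came from STAR, with 7.32 CPM in FLI, against 12.9 CPM in DMEM embryos, and single markers went in both directions.

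On the 6 libraries, filtered on low counts, no gene differed between the media at the 4-cell stage past the threshold. Of 10950 genes tested with edgeR on the 6 libraries, 0 were higher (0%) and 0 lower (0%) in FLI embryos at an adjusted p under 0.05. With the unadjusted p, 202 genes (1.84%) lay under 0.05 with a higher and 254 (2.32%) with a lower level, together 4.16% of those tested. Differences were small for most genes, with an absolute log2 fold change under 0.5 for 9453 genes, or 86.3%, and above 1 for 258, or 2.36%. The median log2 fold change was 0.01, and 51.4% of genes were above 0. All 3 FLI libraries lay above all 3 DMEM libraries for 548 genes (5.0%), and below them for 508 (4.64%). DESeq2 on the same libraries called 2 genes higher (0.0183%) and 3 lower (0.0274%), and limma voom called 0. Without the filter on low counts edgeR called 11 genes higher and 5 lower. Scaled by library size only, the unadjusted counts became 297 higher and 154 lower, with a median of 0.06 over all genes. Without DMEM replicate 3 edgeR called 5 genes higher and 1 lower. Without FLI replicate 1 it called 1 higher, and without FLI replicate 2 it called 1 lower. At the unadjusted threshold the count was 433 higher and 439 lower without DMEM replicate 3, and 121 higher and 138 lower without FLI replicate 2. Without DMEM replicate 1 it was 151 lower.

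**Figure D1:**
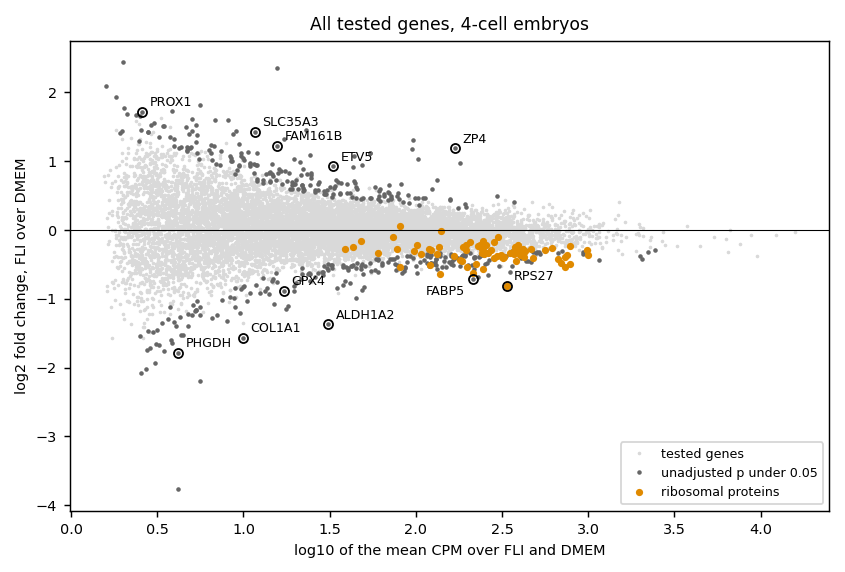
Log2 fold change of FLI over DMEM 4-cell embryos (vertical axis) against the log10 of the mean CPM (horizontal axis) for the 10950 tested genes, with the 456 genes at an unadjusted p under 0.05 in dark grey, ribosomal protein genes in orange and 11 genes named. Most points lie near 0, while 73 of the 74 ribosomal protein genes lie below it.

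At the study's thresholds (log2 fold change over 1.5 in size, p under 0.05), edgeR gave 19 genes higher (0.174%) and 17 lower (0.155%), with the unadjusted p. The study used DESeq2 and did not say whether its p was adjusted, so these counts do not reproduce its gene list. ZP4, FAM161B, FABP5, RPS27 and UBE2W, which it named for this comparison, all lay under 1.5 in size in this fit. Leaving out 1 library gave 24 to 78 higher and 19 to 58 lower, and the fit of all 18 libraries gave 61 and 50. Most genes this far from 0 were scarce, as for the homeobox gene PROX1, a regulator of lymphatic and liver development, with 3.92, 3.76 and 4.29 CPM in FLI embryos and 1.54, 0.705 and 1.31 CPM in DMEM embryos (log2 fold change 1.72, SE 0.613, unadjusted p = 0.0127, adjusted p = 0.997). The serine synthesis gene PHGDH had 0.932, 1.99 and 2.77 CPM in FLI embryos and 4.63, 9.17 and 5.67 CPM in DMEM embryos (log2 fold change -1.78, SE 0.571, unadjusted p = 0.00657, adjusted p = 0.997). In both genes the groups did not overlap, at levels of a few CPM.

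ZP4 had the smallest p among the genes with a symbol and a higher level in FLI embryos. It encodes a glycoprotein of the zona pellucida, the coat that the oocyte secretes around itself (ENSSSCG00000010141, chromosome 14 from 53577135 to 53584546). Its level was 158, 201 and 344 CPM in FLI embryos and 83.8, 85.3 and 138 CPM in DMEM embryos. Every FLI library lay above every DMEM library, and within each medium replicate 3 was the highest (log2 fold change 1.19, SE 0.257, unadjusted p = 0.000276, adjusted p = 0.755). DESeq2 gave an adjusted p of 0.0225 for it. The zona gene ZP2 had 53.7, 57.9 and 93.8 CPM in FLI embryos and 38.1, 56.2 and 118 CPM in DMEM embryos. ZP3 had 16.8, 22.8 and 20.7 CPM in FLI embryos and 18.7, 14.1 and 30.5 CPM in DMEM embryos, and both overlapped between the media. The 3 zona genes summed to 228, 282 and 459 CPM in FLI embryos and 141, 156 and 286 CPM in DMEM embryos.

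FAM161B was also higher in every FLI library. Its family is known from centrosomes and cilia (ENSSSCG00000002353, chromosome 7 from 97244923 to 97258435). It had 24.2, 20.3 and 21.4 CPM in FLI embryos and 7.72, 9.40 and 11.12 CPM in DMEM embryos, and the spread within each medium was small beside the gap (log2 fold change 1.22, SE 0.296, unadjusted p = 0.000793, adjusted p = 0.997). Its paralog FAM161A, by contrast, had 20.1, 30.3 and 30.0 CPM in FLI embryos and 32.0, 28.4 and 33.1 CPM in DMEM embryos, with overlapping groups. SLC35A3, the Golgi transporter of UDP-N-acetylglucosamine used for glycan synthesis, had 16.6, 19.5 and 15.1 CPM in FLI embryos and 7.72, 3.76 and 7.41 CPM in DMEM embryos (log2 fold change 1.43, SE 0.360, unadjusted p = 0.0011, adjusted p = 0.997). These groups did not overlap. ATP2B4, a calcium pump of the plasma membrane, averaged 85.2 ± 11.6 CPM in FLI, against 53.9 ± 3.16 CPM in DMEM embryos, and its log2 fold change was 0.66. Without overlap and with smaller or scarcer values followed the kinase SBK1 (1.09), the homeobox gene UNCX (0.73) and BLOC1S4, a subunit of a complex for lysosome-related organelles (1.60). The smallest p of all genes belonged to ENSSSCG00000034794, which carries no symbol. It had 14.4, 43.1 and 21.4 CPM in FLI embryos and 4.19, 6.11 and 5.02 CPM in DMEM embryos (log2 fold change 2.36, SE 0.406, unadjusted p = 2.68e-05, adjusted p = 0.293), and an adjusted p of 0.000324 from DESeq2.

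RPS27 had the smallest p among the genes with a lower level in FLI embryos. It encodes a protein of the small ribosomal subunit (ENSSSCG00000031838, chromosome 4 from 95694771 to 95699447). Its level was 243, 223 and 266 CPM in FLI embryos and 446, 477 and 361 CPM in DMEM embryos, so every FLI library lay below every DMEM library (log2 fold change -0.81, SE 0.152, unadjusted p = 6.80e-05, adjusted p = 0.372). DESeq2 gave an adjusted p of 0.00779. The gene was named from its RefSeq position, and it overlaps the end of NUP210L on the other strand. Whether reads were counted by strand is not given in the sources used here. ALDH1A2, which makes retinoic acid, had 12.7, 23.7 and 15.9 CPM in FLI embryos and 54.5, 38.3 and 41.6 CPM in DMEM embryos, and its lowest DMEM value was well above its highest FLI value (log2 fold change -1.37, SE 0.273, unadjusted p = 0.00013, adjusted p = 0.474, adjusted p = 0.00786 from DESeq2). It lies on chromosome 1 from 113932739 to 114037046. FABP5, an intracellular carrier of fatty acids (ENSSSCG00000006153, chromosome 4 from 55275205 to 55282908), had 152, 195 and 142 CPM in FLI embryos and 284, 280.2 and 236 CPM in DMEM embryos (log2 fold change -0.71, SE 0.163, unadjusted p = 0.000513, adjusted p = 0.937). The last gene that DESeq2 called is ENSSSCG00000040419, with 1.49, 0 and 0 CPM in FLI embryos and 5.95, 12.5 and 5.23 CPM in DMEM embryos and an adjusted p of 0.0159, and FLI replicates 2 and 3 had no count.

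Further genes were lower in every FLI library. VGLL2, a cofactor of TEAD transcription factors, had 245, 153 and 215 CPM in FLI embryos and 352, 279 and 336 CPM in DMEM embryos (log2 fold change -0.66, SE 0.178, unadjusted p = 0.00194, adjusted p = 0.997). SLC39A10, a zinc importer, had 168, 183 and 172 CPM in FLI embryos and 267, 204 and 306 CPM in DMEM embryos, and PBX3, a homeobox partner of HOX proteins, had 71.6, 57.3 and 67.1 CPM in FLI embryos and 114, 98.2 and 89.8 CPM in DMEM embryos. Their log2 fold changes were -0.57 and -0.62. RFLNA, a filamin-binding protein, averaged 11.6 ± 0.914 CPM in FLI, against 24.8 ± 7.78 CPM in DMEM embryos. UBE2W, a ubiquitin-conjugating enzyme named by the study, had 94.5, 96.6 and 97.4 CPM in FLI embryos and 114, 97.1 and 127 CPM in DMEM embryos, with overlapping groups (log2 fold change -0.23, SE 0.167, unadjusted p = 0.194, adjusted p = 0.997).

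**Figure D2:**
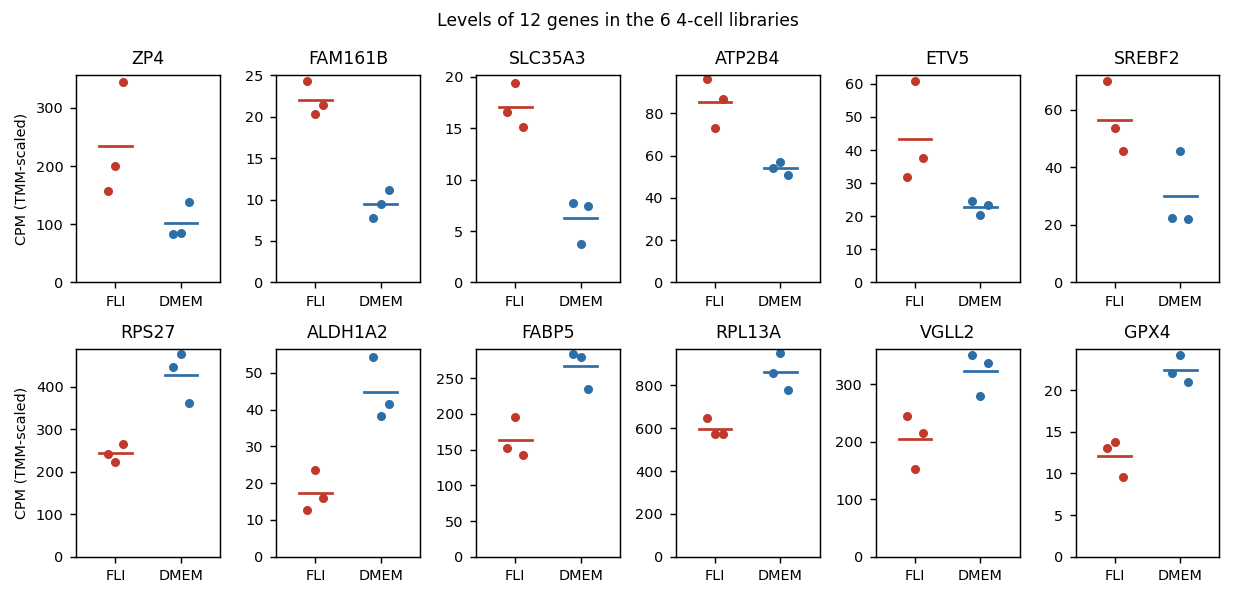
CPM of 12 genes in the 3 FLI (left, red) and 3 DMEM (right, blue) 4-cell libraries, each axis starting at 0, with points for libraries and lines for means. In the upper row every FLI point lies above the DMEM points, as for ZP4 with 158 to 344 against 83.8 to 138 CPM, and in the lower row every FLI point lies below them.

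Nearly all genes of cytosolic ribosomal proteins had lower levels in FLI embryos. Ribosomal proteins form, with ribosomal RNA, the small and large subunits that translate mRNA, and their genes are among the most active at genome activation. Of 79 listed genes, 74 were in the table and all 74 passed the filter on low counts. Their median log2 fold change was -0.33, against 0.01 for all genes, and 73 of the 74 were below 0, against 48.6% of all tested genes. At an unadjusted p under 0.05, 33 were lower and 0 higher, a share of 44.6% against 2.32% of all genes. For 32, or 43.2%, all FLI libraries lay below all DMEM libraries, against 4.64% of all genes. Of the 2408 genes above 100 CPM, a level that 65 of the 74 reach, 4.90% were lower at that threshold and 8.22% lay below without overlap. With edgeR on the 6 filtered libraries no member passed the adjusted threshold. RPS27 passed it with DESeq2, and with edgeR without the filter on low counts (adjusted p = 0.00118) and without DMEM replicate 3 (adjusted p = 0.0201).

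The summed level of the 74 genes was 22283, 19941 and 19619.9 CPM in FLI embryos and 28264, 27385 and 23169 CPM in DMEM embryos. The FLI libraries did not reach the DMEM libraries, of which replicate 3 was the lowest, as it was for 65 of the 74 genes taken singly. As a share of all counts this was 2.33, 2.03 and 1.91% in FLI and 2.71, 2.76 and 2.26% in DMEM embryos. Here FLI replicate 1 exceeded DMEM replicate 3, so on unscaled shares the groups overlapped. The level is a share of the library, so fewer cells with a transcript and less of it per cell cannot be told apart. Both subunits had the shift, with a median of -0.35 for the 31 genes of the small subunit, all below 0, and of -0.30 for the 41 of the large subunit, 40 below 0.

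The members ranged in log2 fold change from -0.81 for RPS27 to 0.06 for RPL29. RPL13A, of the large subunit (ENSSSCG00000052671, chromosome 6 from 54564793 to 54568340), had 646, 571 and 573 CPM in FLI embryos and 859, 951 and 780.2 CPM in DMEM embryos (log2 fold change -0.53, SE 0.139, unadjusted p = 0.00146, adjusted p = 0.997). RPS20 had 646, 651 and 652 CPM in FLI embryos and 931, 923 and 885 CPM in DMEM embryos (log2 fold change -0.49, SE 0.129, unadjusted p = 0.0016, adjusted p = 0.997), with the groups far apart beside a spread of a few percent. RPS7 had 541, 619.9 and 578 CPM in FLI embryos and 973, 774 and 676 CPM in DMEM embryos, and RPSA, the laminin receptor protein of the small subunit, had 377, 375 and 349 CPM in FLI embryos and 481, 514 and 447 CPM in DMEM embryos. RPL9 had 129, 111 and 84.2 CPM in FLI embryos and 196, 159 and 149 CPM in DMEM embryos (log2 fold change -0.63, SE 0.184, unadjusted p = 0.00335, adjusted p = 0.997). These levels lay lower in all 3 FLI libraries. RPL12, RPL17 and RPL36 had log2 fold changes of -0.63, -0.57 and -0.54, and RPL12 and RPL36 overlapped in DMEM replicate 3. RPL29 averaged 82.8 ± 7.57 CPM in FLI, against 79.2 ± 14.1 CPM in DMEM embryos, and RPL28 had a log2 fold change of -0.02. Ribosomal protein genes have many processed copies in mammalian genomes, and how reads shared with them were counted is not given in the sources used here, so single members are uncertain.

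The number of ribosomal protein genes at an unadjusted p under 0.05 depended on the spread that was used. It was 13 to 49 with 1 library left out, with 13 without DMEM replicate 2, 15 without DMEM replicate 1, 15 without FLI replicate 2 and 22 without FLI replicate 3. In the fit of all 18 libraries, whose common coefficient of variation was 0.328 against 0.230 for the 6, it was 2, and with DESeq2 on all 18 it was 3. At least 72 of the 74 stayed below 0 under each of these settings and under every scaling that was run, and the median lay between -0.41 and -0.26.

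**Figure D3:**
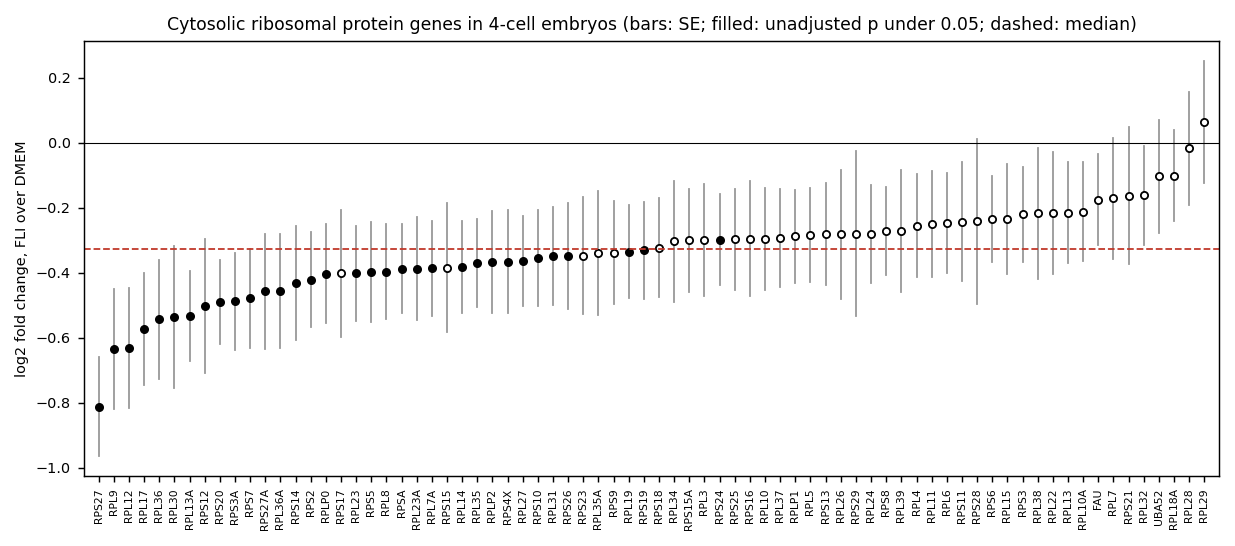
Log2 fold change of FLI over DMEM 4-cell embryos for 74 cytosolic ribosomal protein genes, ordered by size, with bars of 1 SE, filled points for an unadjusted p under 0.05 and a dashed line at the median of -0.33. All points but RPL29 lie below 0, and 33 are filled.

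Genes that build ribosomes and start translation had smaller median differences. Many of them are abundant, and of all genes above 100 CPM, 58.8% were below 0 and 4.90% were lower at an unadjusted p under 0.05. RNA polymerase I transcribes ribosomal RNA, and nucleolar proteins process it. Of 50 such genes, 42 were below 0, with a median of -0.11 that became -0.05 with library size only, and 4 were lower and 0 higher at an unadjusted p under 0.05, a threshold that 2.32% of all genes met as lower and 1.84% as higher. With 1 library left out, 5 were lower without DMEM replicate 3 or FLI replicate 3, and 1 without DMEM replicate 1, DMEM replicate 2, FLI replicate 1 or FLI replicate 2. The pseudouridine synthase DKC1 had 630.3, 566 and 576 CPM in FLI embryos and 760.0, 787 and 692 CPM in DMEM embryos (log2 fold change -0.34, SE 0.134, unadjusted p = 0.0234, adjusted p = 0.997). The nucleolar chaperone NPM1 had 2134, 2079 and 2340.0 CPM in FLI embryos and 2682, 2760.1 and 2577 CPM in DMEM embryos, and the helicase DDX52 and TAF1A, a subunit of the polymerase I promoter factor, had log2 fold changes of -0.41 and -0.34. In these 4 genes every FLI library lay below every DMEM library. UBTF, which encodes the upstream binding factor UBF, had 191, 222 and 263 CPM in FLI embryos and 269.9, 224 and 194 CPM in DMEM embryos, with full overlap (log2 fold change -0.03, SE 0.169, unadjusted p = 0.872, adjusted p = 0.997). POLR1A, the largest polymerase I subunit, had 308, 336 and 287 CPM in FLI embryos and 381, 337 and 328 CPM in DMEM embryos, and nucleolin, NCL, had 5789, 6019 and 6239.5 CPM in FLI embryos and 7056, 7398 and 5395 CPM in DMEM embryos. Both overlapped as well. For translation initiation and elongation factors, 33 of 38 were below 0, with a median of -0.12, and 2 were lower and 0 higher at an unadjusted p under 0.05, against 2.32% and 1.84% of all genes. With library size only, 28 of them were below 0, with a median of -0.06, and 0 were at that threshold. Of these factors, 8 were lower without DMEM replicate 3, and 0 without DMEM replicate 1, DMEM replicate 2 or FLI replicate 2. The 2 were the elongation factor EEF1A1, with 2299, 1874 and 1762 CPM in FLI embryos and 2540.4, 2545 and 2302 CPM in DMEM embryos, and EIF2S2, a subunit of the factor that brings the initiator tRNA, with 338, 317 and 315 CPM in FLI embryos and 447, 401 and 356 CPM in DMEM embryos. Their log2 fold changes were -0.32 and -0.31. The cap-binding factor EIF4E had 135, 131 and 113 CPM in FLI embryos and 134, 139 and 137 CPM in DMEM embryos, overlapping between the media.

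Genes known to be transcribed at genome activation overlapped between the media in most cases that are named here. Of the 32 tested, 23 were below 0, with a median of -0.08, and 2 were lower and 0 higher at an unadjusted p under 0.05, against 2.32% and 1.84% of all genes. The median was -0.13 without FLI replicate 3 and -0.02 without FLI replicate 1. The pluripotency factor KLF4 had 958, 1121 and 959.7 CPM in FLI embryos and 880.0, 824 and 848 CPM in DMEM embryos, and every FLI library was above every DMEM library (log2 fold change 0.25, SE 0.134, unadjusted p = 0.0795, adjusted p = 0.997). MYC, a growth-promoting transcription factor, had 89.3, 159 and 243 CPM in FLI embryos and 183, 152 and 212 CPM in DMEM embryos, and its relative MYCN had 213, 222 and 201 CPM in FLI embryos and 244, 219.5 and 148 CPM in DMEM embryos. The histone demethylase KDM5B had 559, 476 and 502 CPM in FLI embryos and 639.6, 509 and 494 CPM in DMEM embryos. The values of these 3 overlapped. HSPA8, the constitutive chaperone, was the member with the smallest p, with 1959, 1589 and 1651 CPM in FLI embryos and 2335, 2167 and 2279 CPM in DMEM embryos (log2 fold change -0.38, SE 0.135, unadjusted p = 0.012, adjusted p = 0.997).

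Maternal transcripts varied between the pools of each medium. The 34 oocyte and maternal effect genes in the table summed to 6817, 8964 and 11616 CPM in FLI embryos and 6728, 8372 and 11814 CPM in DMEM embryos, and replicate 3 was the highest in each medium. Of the 30 tested, 15 were above 0, with a median of 0.01, and 1 was higher and 2 lower at an unadjusted p under 0.05, against 1.84% and 2.32% of all genes. The median was -0.14 without FLI replicate 3 and 0.21 without DMEM replicate 3, so that 1 library changed its direction. Of the maternal genes, 6 were higher without DMEM replicate 3, and 0 without DMEM replicate 1, DMEM replicate 2, FLI replicate 2 or FLI replicate 3. The higher one, PADI6 of the subcortical maternal complex, had 106, 153 and 189.9 CPM in FLI embryos and 69.9, 87.9 and 138 CPM in DMEM embryos (log2 fold change 0.60, SE 0.244, unadjusted p = 0.0264, adjusted p = 0.997), with overlap. The lower ones were the cyclin CCNB3, with 184, 146 and 138 CPM in FLI embryos and 246, 201 and 181 CPM in DMEM embryos, and BTG4, which recruits the deadenylase to maternal mRNA, with 54.5, 65.7 and 67.6 CPM in FLI embryos and 56.4, 98.9 and 109.7 CPM in DMEM embryos. GDF9, an oocyte growth factor, had 104, 101 and 162 CPM in FLI embryos and 85.8, 99.4 and 161 CPM in DMEM embryos, and NLRP5 of the maternal complex had 30.4, 53.3 and 59.8 CPM in FLI embryos and 38.6, 38.1 and 54.7 CPM in DMEM embryos. Among 36 tested genes of mRNA deadenylation and decay, 23 were above 0, with a median of 0.05, and only BTG4 had an unadjusted p under 0.05. In every FLI library 6 of these genes were higher, where 5.0% of all genes were, and 2 lower, where 4.64% of all genes were. Among the 6 were the decapping factor DCP1A, with 87.6, 101 and 100.4 CPM in FLI embryos and 84.4, 69.8 and 71.5 CPM in DMEM embryos, and the decay activator ZFP36L1, with 19.8, 25.4 and 23.5 CPM in FLI embryos and 13.4, 18.8 and 13.5 CPM in DMEM embryos.

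Respiratory chain genes lay on both sides of 0. The 13 mitochondrially encoded genes made up 18.1, 20.1 and 20.0% of TPM in FLI and 22.3, 16.1 and 22.5% in DMEM embryos, where replicate 2 was the lowest of all libraries. Of the 13, 11 were below 0, with a median of -0.10, and ND6, a complex I subunit, was lower at an unadjusted p under 0.05 with overlapping groups (log2 fold change -0.42, SE 0.191, unadjusted p = 0.0429, adjusted p = 0.997). The median was -0.32 without DMEM replicate 2 and -0.02 without DMEM replicate 1, and 5 were lower without DMEM replicate 2, and 0 without DMEM replicate 1, DMEM replicate 3, FLI replicate 1 or FLI replicate 2. COX1, the catalytic subunit of complex IV, had 10174, 12462 and 13317 CPM in FLI embryos and 13757, 9064 and 15152 CPM in DMEM embryos. Of 68 nuclear encoded genes, 32 were above 0, with a median of -0.04 that became 0.01 with library size only, and 2 were higher and 3 lower at that threshold, met by 1.84% and 2.32% of all genes. The median was -0.18 without FLI replicate 1 and 0.07 without FLI replicate 3, and 10 were lower without DMEM replicate 3, and 1 without FLI replicate 2. The lower ones were the electron carrier CYCS, with 437, 345 and 390.4 CPM in FLI embryos and 591, 581 and 447 CPM in DMEM embryos (log2 fold change -0.47, SE 0.154, unadjusted p = 0.00821, adjusted p = 0.997), COX6C of complex IV, with a log2 fold change of -0.45, and UQCRB of complex III, with -0.46. The higher ones were scarcer, namely NDUFA12 of complex I, with 17.9, 11.7 and 13.4 CPM in FLI embryos and 9.04, 6.35 and 6.76 CPM in DMEM embryos, and SDHD of complex II, with 15.3, 11.05 and 13.9 CPM in FLI embryos and 3.97, 5.64 and 10.2 CPM in DMEM embryos.

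Lipid genes went in both directions. Of 37 tested, 20 were above 0, with a median of 0.07, and 2 were higher and 1 lower at an unadjusted p under 0.05, against 1.84% and 2.32% of all genes. The median was -0.01 without FLI replicate 1 and 0.09 without DMEM replicate 3, and 5 were higher without FLI replicate 3, and 1 without FLI replicate 1. The lower one was FABP5, described above. SREBF2, the transcription factor of cholesterol synthesis, was among the higher ones, with 69.9, 53.7 and 45.7 CPM in FLI embryos and 22.3, 45.6 and 22.2 CPM in DMEM embryos (log2 fold change 0.91, SE 0.282, unadjusted p = 0.00508, adjusted p = 0.997). Every FLI library lay above every DMEM library, by a margin under 0.1 CPM between the closest libraries. The cholesterol synthesis enzyme HMGCS1 had 40.3, 26.1 and 23.0 CPM in FLI embryos and 13.2, 20.4 and 29.0 CPM in DMEM embryos (log2 fold change 0.51, SE 0.311, unadjusted p = 0.117, adjusted p = 0.997), and SQLE, a later enzyme of the pathway, had 95.1, 54.4 and 44.4 CPM in FLI embryos and 40.1, 60.4 and 27.5 CPM in DMEM embryos (log2 fold change 0.61, SE 0.299, unadjusted p = 0.0604, adjusted p = 0.997). Both overlapped. The fatty acid oxidation gate CPT1A had 1127, 955 and 850.2 CPM in FLI embryos and 1210.2, 993 and 925 CPM in DMEM embryos, and the lipid droplet coat PLIN2 had 426, 274 and 436 CPM in FLI embryos and 541, 453 and 266 CPM in DMEM embryos, both overlapping.

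When amino acids run short or the endoplasmic reticulum is stressed, ATF4 switches on enzymes and transporters of amino acids. Of 28 genes tested, 20 were below 0, against 48.6% of all genes, with a median of -0.21. At an unadjusted p under 0.05, 4 were lower and 0 higher, against 2.32% and 1.84% of all genes. Of the list, 5 were lower without DMEM replicate 3 or FLI replicate 2, and 2 without DMEM replicate 1 or DMEM replicate 2. ATF4 had 95.5, 112 and 96.3 CPM in FLI embryos and 136, 132 and 119.9 CPM in DMEM embryos (log2 fold change -0.35, SE 0.162, unadjusted p = 0.0454, adjusted p = 0.997), and the secreted protein STC2 had 64.0, 72.3 and 47.7 CPM in FLI embryos and 109, 84.6 and 83.3 CPM in DMEM embryos (log2 fold change -0.59, SE 0.201, unadjusted p = 0.0101, adjusted p = 0.997). For both, as for PHGDH above, the groups did not overlap. DDIT3, the stress factor CHOP, had 10.6, 17.9 and 12.9 CPM in FLI embryos and 17.6, 36.0 and 23.3 CPM in DMEM embryos (log2 fold change -0.89, SE 0.321, unadjusted p = 0.0132, adjusted p = 0.997), with slight overlap. Asparagine synthetase, ASNS, had 17.9, 13.9 and 22.4 CPM in FLI embryos and 19.6, 13.2 and 36.6 CPM in DMEM embryos, and the leucine transporter SLC7A5 had 43.3, 30.7 and 24.5 CPM in FLI embryos and 53.4, 55.2 and 23.6 CPM in DMEM embryos, both overlapping. The list summed to 1116, 1124 and 1005 CPM in FLI embryos and 1214, 1195 and 1318 CPM in DMEM embryos, without overlap.

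Among redox and stress genes, GPX4, which removes lipid peroxides, had 13.1, 13.7 and 9.58 CPM in FLI embryos and 22.0, 24.2 and 20.9 CPM in DMEM embryos, with a clear gap between the groups (log2 fold change -0.88, SE 0.283, unadjusted p = 0.00681, adjusted p = 0.997). It was the single gene at an unadjusted p under 0.05 among 24 tested genes of glutathione, thioredoxin and oxidative stress, of which 10 were above 0 (median -0.09). Over all genes, 2.32% were lower and 1.84% higher at that threshold. Of 35 heat shock and folding genes, HSPA8 alone was at that threshold (median -0.04), and HSPA5, the chaperone of the endoplasmic reticulum, had 378, 388 and 373 CPM in FLI embryos and 255, 325 and 337 CPM in DMEM embryos, higher in every FLI library (log2 fold change 0.31, SE 0.148, unadjusted p = 0.0501, adjusted p = 0.997). Of 28 glycolysis and pyruvate genes, 2 were lower and 1 higher at an unadjusted p under 0.05, against 2.32% and 1.84% of all genes. Their median of 0.01 became -0.12 without FLI replicate 1 and 0.09 without FLI replicate 3. The lower ones were the aldolase ALDOA, with 45.7, 40.7 and 45.4 CPM in FLI embryos and 77.2, 66.5 and 55.4 CPM in DMEM embryos (log2 fold change -0.59, SE 0.199, unadjusted p = 0.00878, adjusted p = 0.997), and PGAM1, with 176, 162 and 165 CPM in FLI embryos and 232, 208 and 213 CPM in DMEM embryos, and neither overlapped. The higher one, the phosphofructokinase PFKL, had 9.14, 9.06 and 3.78 CPM in FLI embryos and 4.19, 3.53 and 0.436 CPM in DMEM embryos, with overlap.

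The growth factors of FLI signal through receptor kinases to ERK, and LIF through its receptor to STAT3. By the methods, DMEM also held EGF, FGF and IGF1, with less FGF and more IGF1 than FLI, but no LIF. None of the 53 tested receptors and transducers had an unadjusted p under 0.05 (median 0.03), where 1.84% of all genes were higher and 2.32% lower. The LIF receptor LIFR had 23.1, 20.6 and 37.3 CPM in FLI embryos and 26.0, 30.1 and 33.6 CPM in DMEM embryos, its partner IL6ST had 38.8, 22.5 and 21.9 CPM in FLI embryos and 24.9, 27.3 and 32.7 CPM in DMEM embryos, and the FGF receptor FGFR2 had 10.3, 10.2 and 16.4 CPM in FLI embryos and 13.4, 10.1 and 15.5 CPM in DMEM embryos. Among 18 tested genes induced by ERK, ETV5, a transcription factor of the ETS family (ENSSSCG00000023229, chromosome 13 from 123873350 to 123930200), was higher in every FLI library, with 31.9, 60.8 and 37.6 CPM in FLI embryos and 24.5, 20.4 and 23.3 CPM in DMEM embryos (log2 fold change 0.93, SE 0.265, unadjusted p = 0.00295, adjusted p = 0.997). ETV5 was the single member at that threshold. With levels scaled over all 18 libraries, it had 46.9 ± 5.58 CPM in FLI, against 42.2 ± 5.92 CPM in DMEM embryos at the 2-cell stage. At the 4-cell stage it had 46.1 ± 16.2 CPM in FLI, against 24.5 ± 2.06 CPM in DMEM embryos. The interaction of ETV5 against the 2-cell stage had an unadjusted p of 0.166 from edgeR. Its relative ETV4 and the phosphatase DUSP6 were too scarce to be tested, while SPRY2, a feedback inhibitor, had 27.8, 24.8 and 22.2 CPM in FLI embryos and 20.5, 26.8 and 34.7 CPM in DMEM embryos. Of 16 tested genes induced by STAT3, 0 had an unadjusted p under 0.05, and 10 were above 0 (median 0.13). The median became -0.01 without FLI replicate 2. Their sum was 2403, 2609 and 2336 CPM in FLI embryos and 2239, 2093 and 2200.4 CPM in DMEM embryos, without overlap, and most of it came from KLF4 and the kinase PIM1, with 858, 880.3 and 781 CPM in FLI embryos and 808, 723 and 669 CPM in DMEM embryos. SOCS3, the feedback inhibitor of this pathway, had 4.48, 4.42 and 2.02 CPM in FLI embryos and 3.09, 1.41 and 1.74 CPM in DMEM embryos.

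Chromatin, lineage and division genes were counted at an unadjusted p under 0.05, which 1.84% of all genes met as higher and 2.32% as lower. Of 45 histone demethylases and methyltransferases, 1 was higher and 1 lower at an unadjusted p under 0.05 (median 0.00). The demethylase PHF8 had 77.8, 82.0 and 88.0 CPM in FLI embryos and 51.6, 61.1 and 58.7 CPM in DMEM embryos (log2 fold change 0.53, SE 0.179, unadjusted p = 0.00917, adjusted p = 0.997), and KDM3A, which acts on lysine 9 of histone H3, had 210.0, 191 and 227 CPM in FLI embryos and 344, 280.2 and 259 CPM in DMEM embryos (log2 fold change -0.49, SE 0.155, unadjusted p = 0.00613, adjusted p = 0.997). Neither overlapped. None of 24 pluripotency and lineage factors was at that threshold (median -0.02), with 33.0, 26.8 and 32.0 CPM in FLI embryos and 32.0, 20.4 and 31.4 CPM in DMEM embryos for NANOG and 76.6, 69.6 and 51.7 CPM in FLI embryos and 74.1, 61.6 and 54.7 CPM in DMEM embryos for SOX2, and CDX2 had at most 0.654 CPM. Of 31 homeobox genes, 4 were higher and 1 lower (median 0.10), against 1.84% and 2.32% of all genes. The median was -0.07 without FLI replicate 3 and 0.22 without DMEM replicate 2, and 10 were higher without DMEM replicate 3, and 1 without DMEM replicate 1 or DMEM replicate 2. Besides PROX1 and PBX3 these were NKX6-1, with 24.8, 32.9 and 31.8 CPM in FLI embryos and 11.5, 16.7 and 22.9 CPM in DMEM embryos and no overlap, and LHX1 and MEIS3, with log2 fold changes of 0.84 and 0.71 and overlap.

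At an unadjusted p under 0.05, 1.84% of all genes were higher and 2.32% lower. Of 51 cell cycle and replication genes, CDKN1C alone was at that threshold. This imprinted inhibitor of cyclin-dependent kinases had 4.48, 10.4 and 4.79 CPM in FLI embryos and 3.53, 2.12 and 2.83 CPM in DMEM embryos (log2 fold change 1.20, SE 0.527, unadjusted p = 0.0368, adjusted p = 0.997) and was also the single one among 18 imprinted genes (median 0.17). The cyclin CCNB1 averaged 654 ± 34.8 CPM in FLI, against 666 ± 67.6 CPM in DMEM embryos, and CCNA2 averaged 302 ± 27.5 CPM in FLI, against 322 ± 35.1 CPM in DMEM embryos. Of 41 centrosome and cilium genes, FAM161B alone was at that threshold (median 0.06), and of 48 actin and junction genes it was the actin-binding peptide TMSB4X, with 59.1, 34.7 and 48.7 CPM in FLI embryos and 68.8, 56.4 and 92.0 CPM in DMEM embryos and overlap. The cadherin CDH1 had 1131, 951 and 1083 CPM in FLI embryos and 1116, 1024 and 1039.7 CPM in DMEM embryos, and the values overlapped. None of 30 ubiquitin-conjugating enzymes and none of 31 proteasome subunits was at the threshold, with medians of -0.01 and -0.04. Of 23 apoptosis regulators, 1 reached it, the stress-induced gene GADD45B, which had 7.83, 2.87 and 6.56 CPM in FLI embryos and 14.6, 17.4 and 8.29 CPM in DMEM embryos, without overlap (log2 fold change -1.21, SE 0.431, unadjusted p = 0.0128, adjusted p = 0.997). Over all lists, the median of 15 of the 29 lists changed sign when 1 library was left out.

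**Figure D4:**
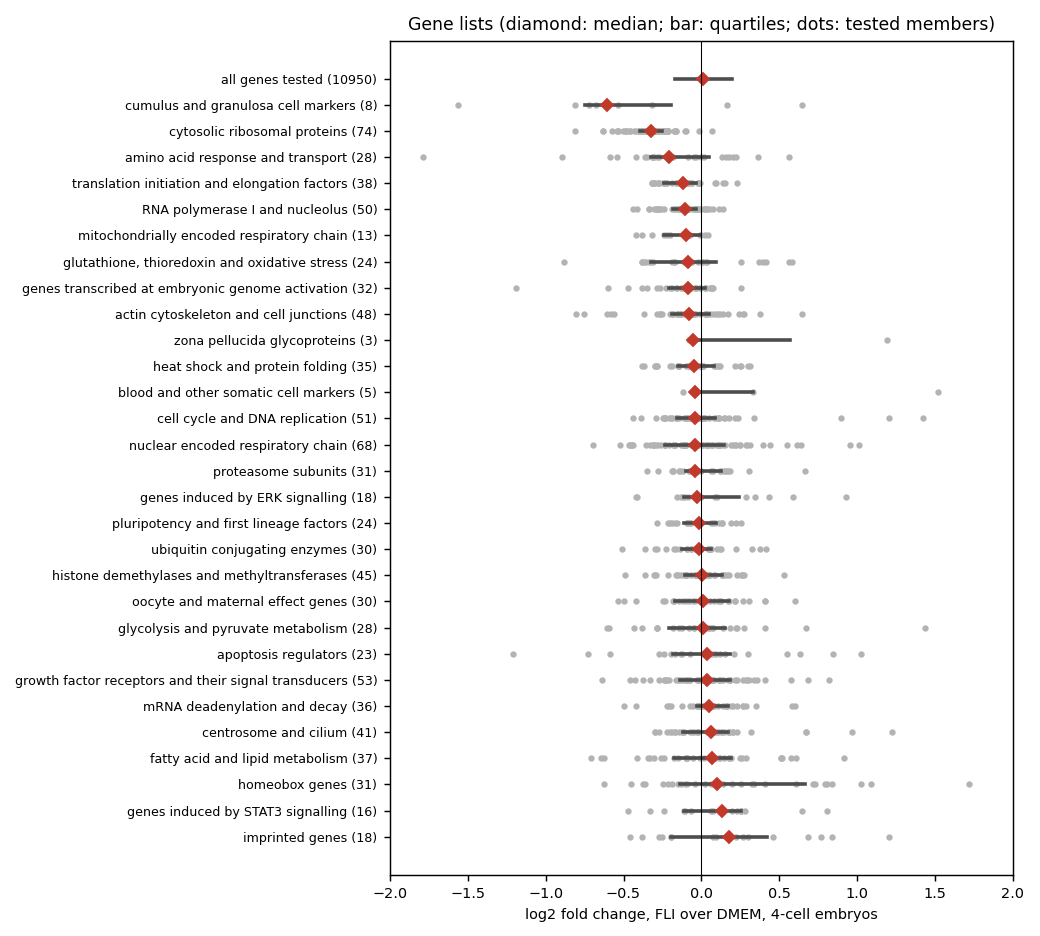
Log2 fold changes of FLI over DMEM 4-cell embryos for 29 gene lists and all tested genes, with grey dots for tested members, bars from the lower to the upper quartile, diamonds for medians and the number of tested genes in parentheses. The ribosomal protein list, with a median of -0.33, lies below 0 over its whole quartile range, and most other lists straddle 0.

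Cumulus cells surround the oocyte during maturation, and their markers were followed as a check on other cells in the pools. Of 33 listed cumulus and granulosa genes, 32 were in the table and 8 passed the filter, of which 2 were above 0 (median -0.61) and 3 were lower at an unadjusted p under 0.05, against 2.32% of all genes. Of the 8, 3 were lower without FLI replicate 2, and 1 without FLI replicate 1 or FLI replicate 3. COL1A1, a collagen that also marks other somatic cells, had 2.98, 3.10 and 9.08 CPM in FLI embryos and 10.1, 11.8 and 22.2 CPM in DMEM embryos (log2 fold change -1.56, SE 0.476, unadjusted p = 0.00466, adjusted p = 0.997). VCAN, a matrix proteoglycan and the most abundant of the list, had 106, 156 and 106 CPM in FLI embryos and 219.8, 118 and 195 CPM in DMEM embryos. STAR, which brings cholesterol into mitochondria of steroid-forming cells, had 7.09, 9.06 and 5.80 CPM in FLI embryos and 11.02, 15.7 and 11.99 CPM in DMEM embryos (log2 fold change -0.81, SE 0.357, unadjusted p = 0.0365, adjusted p = 0.997). For COL1A1 and STAR the groups did not overlap. The whole list summed to 157, 203 and 156 CPM in FLI embryos and 283, 187 and 276 CPM in DMEM embryos, with overlap in DMEM replicate 2, and most of it was VCAN. The defining markers HAS2, TNFAIP6, PTX3 and CYP19A1 had at most 1.55 CPM in any library. The anti-Müllerian hormone gene AMH averaged 0.0622 CPM in FLI, against 1.75 CPM in DMEM embryos, and the steroidogenic factor NR5A1 averaged 0.326 CPM in FLI, against 2.89 CPM in DMEM embryos. TNFAIP6, CYP19A1, FSHR, LHCGR and INHBA also averaged lower in FLI embryos. By contrast, HAS2, PTX3, CYP11A1, HSD3B1, HSD17B1, INHA and AMHR2 averaged higher in FLI embryos. All of these further markers averaged under 1 CPM in each medium. The part of these cells in the differences above was not tested. Of 5 further tested markers of blood and other somatic cells, COL1A1 not counted, 2 were above 0, and PDGFRA had 5.03, 4.86 and 3.03 CPM in FLI embryos and 2.20, 0.940 and 1.31 CPM in DMEM embryos (log2 fold change 1.52, SE 0.605, unadjusted p = 0.023, adjusted p = 0.997).

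Among the genes of the table used here, mitochondrially encoded genes led per transcript length in both media, with 36323 ± 1844 TPM in FLI, against 36242 ± 3800.2 TPM in DMEM embryos for COX2 and 28307 ± 3745 TPM in FLI, against 26798 ± 3395 TPM in DMEM embryos for ATP6 (SD, n = 3 each). The leading nuclear gene of this table was ENSSSCG00000034113, with 28494 ± 285 TPM in FLI, against 27703 ± 2344 TPM in DMEM embryos, which carries no symbol and lies on chromosome 9 from 25500051 to 25503695. Among nuclear genes with a symbol, RPLP1, of the ribosomal stalk, came first with 4951 ± 104 TPM in FLI, against 5752 ± 959 TPM in DMEM embryos, followed by TPT1, with 3668 ± 626 TPM in FLI, against 3522 ± 207 TPM in DMEM embryos, and NCL, with 3503 ± 19.3 TPM in FLI, against 3669.7 ± 673 TPM in DMEM embryos. RPL13A had 2817 ± 288 TPM in FLI, against 3876 ± 530.0 TPM in DMEM embryos, and the groups did not overlap. The other 11 of the 15 leading genes were CDV3, EEF1A1, YBX1, HENMT1, CALM2, HNRNPA1, ANP32B, EEF2, RPS7, RPL22 and ODC1. Among these 11, EEF1A1 and RPS7 had an unadjusted p under 0.05 on the counts. ODC1, the first enzyme of polyamine synthesis, had 2489 ± 433 TPM in FLI, against 2299 ± 225 TPM in DMEM embryos, and HENMT1, a methyltransferase of small RNAs, had 2968 ± 177 TPM in FLI, against 2528 ± 244 TPM in DMEM embryos. The HENMT1 groups overlapped by the DMEM replicate 3 library, and those of ODC1 fully. Every RPLP1 library lay above every TPT1 library, while from TPT1 down the libraries of neighbours in this ranking overlapped. The RNAs that led the study's own ranking are not among the leading genes here, and its TPM for COX2 were lower. The TPM and the mitochondrial shares given here are therefore not on the study's scale.

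The difference between the media at the 4-cell stage was set against that at the other stages in a fit of all 18 libraries. No gene passed for the 4-cell against the 2-cell difference (0% of 13187), and 337 had an unadjusted p under 0.05 (2.56%). Against the 8-cell difference 0 passed (0%) and 405 had an unadjusted p under 0.05 (3.07%). In a fit of the 12 libraries of the 2-cell and 4-cell stages alone, 3 genes had an adjusted p under 0.05 (0.0317 each, edgeR), all lower, namely ENSSSCG00000014569 with an interaction of -1.73 and the ribosomal protein genes RPS2 with -1.42 and RPL7A with -1.19 on the log2 scale. With levels scaled over all 18 libraries, RPS2 had 51.3 ± 4.46 CPM in FLI, against 25.5 ± 7.01 CPM in DMEM embryos at the 2-cell stage, and 604 ± 84.3 CPM in FLI, against 821 ± 62.3 CPM in DMEM embryos at the 4-cell stage. RPL7A had 164 ± 28.9 CPM in FLI, against 92.9 ± 11.9 CPM in DMEM embryos at the 2-cell stage, and 677 ± 39.7 CPM in FLI, against 896 ± 129 CPM in DMEM embryos at the 4-cell stage. Of the 74 ribosomal protein genes, 22 had a lower difference at the 4-cell than at the 2-cell stage at an unadjusted p under 0.05 and 0 a higher one, where 1.65% of all genes were lower. Against the 8-cell stage 0 of the 74 were at that threshold in either direction, where 1.91% of all genes were lower.

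Summed over the ribosomal protein genes, 2-cell embryos had 2274 ± 48.6 CPM in FLI, against 1761 ± 70.2 CPM in DMEM. In 4-cell embryos the sums were 21887 ± 1417 CPM in FLI, against 28263 ± 2752 CPM in DMEM, and in 8-cell embryos 20577 ± 8519 CPM in FLI, against 32771 ± 5452 CPM in DMEM (SD, n = 3 each). FLI was thus the higher medium at the 2-cell stage and the lower one at the 4-cell stage, without overlap in either, and at the 8-cell stage the libraries overlapped. The median log2 fold change of FLI over DMEM was 0.43, -0.35 and -0.65 in 2-cell, 4-cell and 8-cell embryos, in that order. RPS27 was close to the limit of detection at the 2-cell stage, with 0.712 ± 0.378 CPM in FLI, against 0.687 ± 0.230 CPM in DMEM embryos. At the 8-cell stage RPS27 had 210 ± 85.8 CPM in FLI, against 467 ± 30.8 CPM in DMEM embryos, without overlap.

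ZP4 had 251 ± 18.9 CPM in FLI, against 153 ± 15.4 CPM in DMEM embryos at the 2-cell stage, 249 ± 106 CPM in FLI, against 110.2 ± 33.8 CPM in DMEM embryos at the 4-cell stage and 166 ± 181 CPM in FLI, against 78.1 ± 32.8 CPM in DMEM embryos at the 8-cell stage. Its mean was higher in FLI at each stage, and the 4-cell difference did not pass against either other stage (adjusted p = 1 from edgeR for both). FAM161B had 5.32 ± 1.88 CPM in FLI, against 3.54 ± 1.62 CPM in DMEM embryos at the 2-cell and 10.3 ± 1.96 CPM in FLI, against 10.5 ± 3.97 CPM in DMEM embryos at the 8-cell stage, and the 4-cell level of FLI embryos was above all of these. Its interaction had an unadjusted p of 0.268 against the 2-cell and 0.0289 against the 8-cell stage from edgeR. Neither passed the adjusted threshold. For ALDH1A2 the values were 13.8 ± 3.37 CPM in FLI, against 16.8 ± 6.04 CPM in DMEM embryos at the 2-cell and 22.3 ± 5.57 CPM in FLI, against 21.7 ± 8.45 CPM in DMEM embryos at the 8-cell stage, against 18.5 ± 5.96 CPM in FLI, against 48.2 ± 8.62 CPM in DMEM embryos at the 4-cell stage. The interaction of ALDH1A2 had an unadjusted p of 0.0346 against the 2-cell and 0.00884 against the 8-cell stage (adjusted p = 1 from edgeR). FABP5 had 129 ± 41.1 CPM in FLI, against 197 ± 22.1 CPM in DMEM embryos at the 8-cell stage, lower in FLI on average as at the 4-cell stage.

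**Figure D5:**
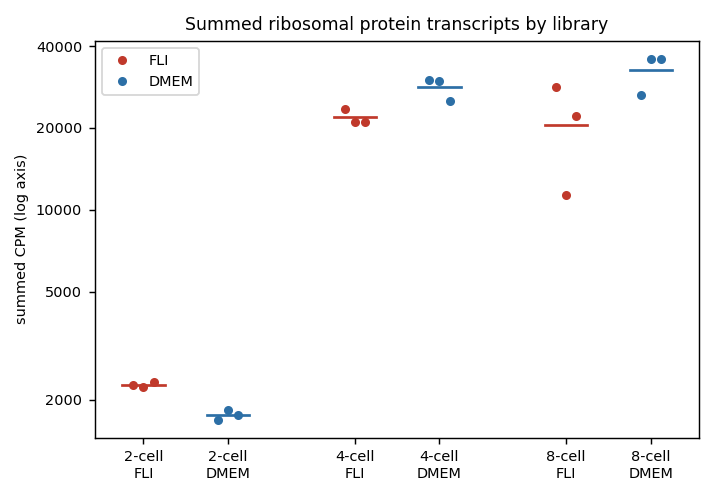
Summed CPM of 74 ribosomal protein genes (logarithmic axis) in each library of 2-cell, 4-cell and 8-cell embryos, FLI in red left of DMEM in blue, with points for libraries and lines for means of 3. FLI libraries lie above DMEM at the 2-cell stage and below at the 4-cell stage, and the 8-cell libraries overlap.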

How the data were processed

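Porcine 4-cell embryos of the FLI and DMEM groups were analysed from 1 deposited table of 20983 genes, with 18 libraries. By the study's methods, RNA of pooled embryos was made into stranded total RNA libraries (SMARTer Pico kit) and sequenced from both ends, reads were mapped with bowtie2, and Illumina Dragen gave the expression values. Versions, annotation and the strand setting of the counting were not given in the sources used here. Sscrofa11.1 is the build in the submitters' processing notes. The authors deposited raw total counts per gene and library, which were used for all tests and CPM levels. TPM, scaled by the authors to the same total in every library, were used for abundance ranks and the mitochondrial share. The 36 columns of CPM and RPKM were not used. Of the genes, 15498 had a symbol, 192 were named from a gene name table and 637 by RefSeq position (at least 80% overlap or a start within 100 bases). KDM4E and some other genes are not reported here.

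Counts of the 6 libraries were filtered with filterByExpr (10950 genes), scaled by TMM and tested with glmQLFTest in edgeR 4.0.16 (R 4.3.3), with Benjamini-Hochberg adjustment over all tested genes and a threshold of 0.05. The spread was taken from these 6 libraries and the fit of all 18 libraries (13187 genes) was run as an alternative and for interactions of medium and stage. The SE was derived from the log2 fold change and its F statistic. Single values per library were compared by an exact permutation test with scipy 1.17.1. Alternatives were DESeq2 1.42.0, limma 3.58.1 voom, other scalings and filters, a replicate block, and leaving out each library. The tests were tested on simulated data. The study does not say whether its p was adjusted, and it was taken as unadjusted. Members, the 29 lists and the tests were chosen with earlier results of these data known. Named genes were the 10 in each direction with a symbol, the smallest p and no overlap, the genes named by the study, the first 4 and the 2 with the smallest p of each list, and the 15 most abundant nuclear genes. Genes without a symbol, HMGCS1, SQLE, NPM1, TAF1A, UQCRB, NDUFA12, SDHD, DCP1A, DDIT3, PFKL, NKX6-1, LHX1, MEIS3, STAR, RPL12, RPL17, RPL36, RPL28, RPL29, RPS2 and RPL7A were added after their values were seen. Lists are described without a test of the list.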

Additional observations from a re-analysis of the deposited data

Results flagged for a closer look

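The summed level of the 74 cytosolic ribosomal protein genes differed between the media in opposite directions at adjacent stages. All 3 FLI libraries lay below all 3 DMEM libraries at the 4-cell stage, with a log2 ratio of the means of -0.37, and above them at the 2-cell stage, with a log2 ratio of 0.37. The ratios differ by -0.7372. This difference of the sums was not tested. Per gene, the interaction reached an adjusted p under 0.05 for 0 of the 74 with all 18 libraries, and for RPS2 and RPL7A with the 12 libraries of both stages. The sums averaged 2274 CPM in FLI and 1761 CPM in DMEM 2-cell embryos, and 21887 CPM in FLI and 28263 CPM in DMEM 4-cell embryos.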

How the results depend on the processing

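No gene was called by edgeR on the 6 filtered libraries. At an adjusted p under 0.05, DESeq2 on the 6 libraries called 2 genes higher and 3 lower, no filter on low counts gave 11 and 5, and leaving out 1 library 0 to 5 higher and 0 to 1 lower. At an unadjusted p under 0.05, no filter gave 401 higher and 435 lower. The fit of all 18 libraries gave 154 lower, library size only also 154, and leaving out 1 library gave 121 to 433 higher and 138 to 439 lower. At the thresholds of the study, the fit of all 18 libraries gave 61 higher and 50 lower, DESeq2 on all 18 gave 68 and 77, no filter 148 and 151, and leaving out 1 library 24 to 78 higher and 19 to 58 lower, with 78 without DMEM replicate 3 and 58 without FLI replicate 1. The interaction of medium with the 4-cell against the 2-cell stage had 3 genes lower in the fit of the 12 libraries.

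Replicate numbers recur in both media, but the labels do not say that a number marks a shared collection, and same-numbered libraries deviated together with correlations of 0.17, 0.05 and 0.30. A replicate block called 12 genes higher and 10 lower at an adjusted p under 0.05, among them ZP4, SREBF2, RPS27, ALDH1A2, FABP5, VGLL2 and RPL9, and 406 and 448 at an unadjusted p. Of the 6 libraries 5 correlated best with their own number, the exception being DMEM replicate 2. For 52 of the named genes, all 935 combinations of gene and alternative kept their direction, and 24 combinations passed the adjusted threshold. Many named genes were picked from these same libraries for a small p and groups without overlap. A kept direction was therefore likely beforehand, and it says nothing of the other named genes. Leaving out a library left 2 against 3 libraries, with the spread shared. Genes near or under 1 CPM were left out by the filter, so differences among them were not detectable at this depth.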

Other observations

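Genes at the limit of detection separated the media in few cases. Of 20983 genes, 13623 had at least 1 count in every FLI library and 13230 in every DMEM library. At least 1 count in every FLI library and none in any DMEM library was found for 75 genes, and the reverse for 37. The largest summed counts were 20 and 21. The membrane protein gene TSPAN33 had 11, 4 and 5 counts in FLI and 0 in each DMEM library. At the 2-cell stage it also had counts in FLI embryos only, with 6, 3 and 2 in FLI and 0 in each DMEM library, while at the 8-cell stage both media had some. The phosphatase gene PTP4A3 had 12, 2 and 5 counts in FLI and 0 in each DMEM library. IL12A, which encodes a subunit of interleukin 12, had 0 counts in each FLI library and 2, 4 and 4 counts in DMEM embryos. STMN4, a microtubule regulator, had 0 counts in each FLI library and 6, 3 and 3 counts in DMEM embryos. These genes were chosen after their values were seen and their levels are close to the 3 counts that a zero allows.

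Among the 2408 genes above 100 CPM, 118 were lower and 16 higher in FLI embryos at an unadjusted p under 0.05, against 136 lower and 186 higher among the 8542 genes up to that level. The medians were -0.04 and 0.03. The cause was not tested.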
